A study of Mus musculus with 6 samples.

Results

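Cab39, its paralog Cab39l, the kinase LKB1 (Stk11) and the 7 genes of the AMP-activated protein kinase (AMPK) were examined in erythroblasts that lack the microRNA locus miR-144/451. Members were every probe set that the platform annotation gives to exactly 1 gene whose symbol is Cab39, Cab39l, Stk11, Prkaa1, Prkaa2, Prkab1, Prkab2, Prkag1, Prkag2 or Prkag3. This gave 24 of 45037 tested probe sets and 10 of 18193 genes, and every listed gene had at least 1 probe set. The knockout group held 3 mice labelled miR-144/451 knockout (KO 493, KO 548 and KO 551), and the wild-type group held 3 mice labelled wild type (WT 497, WT 504 and WT 550), with 1 Affymetrix Mouse Genome 430 2.0 array for each. From fresh bone marrow, large cells positive for Ter119, an erythroid surface marker, and for CD71, the transferrin receptor, were sorted into Trizol LS, and the same gate was used for both genotypes. Each number is taken here to name a mouse, although the labels do not explain it, and strain and age were not used here. How the locus was deleted is not given in the sources used here.

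LKB1 is a kinase that works in a complex with a STRAD pseudokinase and a scaffold of the MO25 family. Cab39 encodes MO25 alpha and Cab39l encodes MO25 beta. The complex phosphorylates AMPK, which responds to a falling energy charge of the cell, as well as a family of AMPK-related kinases. AMPK is a trimer of a catalytic alpha subunit, a scaffolding beta subunit and a nucleotide-binding gamma subunit, each with alternative isoforms. AMPK is required for normal red cell survival in mice, and Cab39 is a known target of miR-451.

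The mature microRNAs of the locus are shown because their absence defines the knockout group. The sequences are RefSeq's, on mouse build GRCm38.p6, plus strand of chromosome 11, written 5′ to 3′, and the capitals mark the seed (bases 2 to 8), the stretch that pairs with target transcripts. miR-451a lies at chr11:78073186-78073207, miR-144-3p at chr11:78073047-78073066 and miR-144-5p at chr11:78073010-78073032.
mmu-miR-451a: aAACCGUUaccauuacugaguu
mmu-miR-144-3p: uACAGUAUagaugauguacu
mmu-miR-144-5p: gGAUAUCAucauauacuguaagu
The 3 seeds differ, so each microRNA has its own set of possible seed matches. Target sites within the transcripts of Cab39 and the AMPK genes were not analysed here.

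The arrays were close in scale, with median log2 intensities of 5.62 to 5.68 in KO and 5.73 to 5.78 in WT. The median of every WT array thus lay slightly above that of every KO array. Genotypes rest on the labels, since the microRNAs were not analysed on the arrays. Of 10 erythroid markers 8 were measured, and all lay high, at mean log2 intensities of 11.15 to 13.07. These included Gata1, Klf1, Tfrc and Slc4a1. Markers of other blood lineages were also present in both groups. Over the 46 measured of 51 such markers the mean log2 intensity was 8.74 to 8.78 in KO and 9.01 to 9.35 in WT, highest in WT 497. Of the 46, 39 were lower in KO, where 55.7% of all genes were lower. The cell types in this pool differed. Eosinophil, basophil and mast cell markers had the largest shift, KO minus WT -0.73 with 6 of 6 lower. They averaged 8.18 to 8.33 in KO and 8.57 to 9.46 in WT, highest in WT 497. B lineage markers were at -0.52 with 7 of 8 lower. Megakaryocyte markers were at 0.05 with 2 of 6 lower, and macrophage markers were highest in WT 504, at 9.2. Neutrophil markers alone averaged 11.44 to 11.79 in KO and 11.91 to 12.07 in WT, and early progenitor markers 7.31 to 7.44 in KO and 7.66 to 7.98 in WT. The actin signal near the 3′ end minus that near the 5′ end, a measure of RNA integrity, was 1.82 to 1.86 in KO and 1.65 to 1.67 in WT (log2), while the same measure for Gapdh overlapped, at 1.0 to 1.05 in KO and 1.03 to 1.09 in WT. Erythroid markers averaged 12.12 to 12.17 in KO and 12.21 to 12.28 in WT, with 7 of 8 lower in KO. The shifts in the array medians, in most marker lists and in actin run with genotype, and their part in the differences below was not tested. In such bulk samples fewer cells of a type and less RNA per cell cannot be told apart.

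Cab39 was the member with the clearest difference. On its brightest probe set, 1418433_at, the log2 intensity was 11.34, 11.31 and 11.40 in KO 493, 548 and 551, and 10.90, 10.88 and 10.87 in WT 497, 504 and 550. Every KO mouse lay above every WT mouse, and the gap between the groups was wider than the range within either. The second probe set, 1418432_at, read 9.30, 9.43 and 9.50 in KO, and 8.82, 8.88 and 8.66 in WT. These groups also did not overlap.

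The difference KO minus WT was 0.47 ± 0.09 (log2, limma's moderated SE, n = 3 per group) on the brightest probe set, a 1.38-fold higher signal in KO with a 95% interval of 1.19 to 1.61. On the second it was 0.62 ± 0.11, or 1.54-fold (1.28 to 1.86). The sizes on the 2 probe sets differed by 0.16, which an exact two-sided permutation test did not separate (p = 0.2, adjusted p = 0.56 over 14 within-gene pairs of probe sets, smallest possible p = 0.1). Neither passed the threshold of 0.05 on limma's Benjamini-Hochberg adjusted p over all probe sets (adjusted p = 0.0892 and 0.0771), while unadjusted p-values were 0.00169 and 0.000977. By unadjusted p Cab39 ranked 347 of 18193 genes, and 4.01% of genes had a difference at least as high.

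Whether Cab39 passed the threshold depended on how the variance was modelled and which probe sets were tested. With a variance prior that follows the intensity, fitted robustly, both probe sets were called higher (adjusted p = 0.00507 and 0.0226). With probe sets below the median mean level left out, both were called too (adjusted p = 0.0318 and 0.0319). These settings call many more features in all: 1.71% of probe sets higher and 1.83% lower with the intensity trend, and 2.58% higher and 1.92% lower with the filter, against 0.184% higher and 0.171% lower in the limma fit of all probe sets with a constant prior. The mean of both probe sets was higher by 0.55 (adjusted p = 0.0556). Leaving out any 1 mouse kept the difference on the brightest probe set between 0.44 and 0.49 and on the second between 0.56 and 0.68. With 5 arrays no adjusted p passed (0.137 to 0.212 on the brightest and 0.122 to 0.202 on the second). Those fits called 8 to 23 of all 45037 probe sets, against 160 with all mice. Limma's unadjusted p for Cab39 was then 0.00198 to 0.0087.

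**Figure D1:**
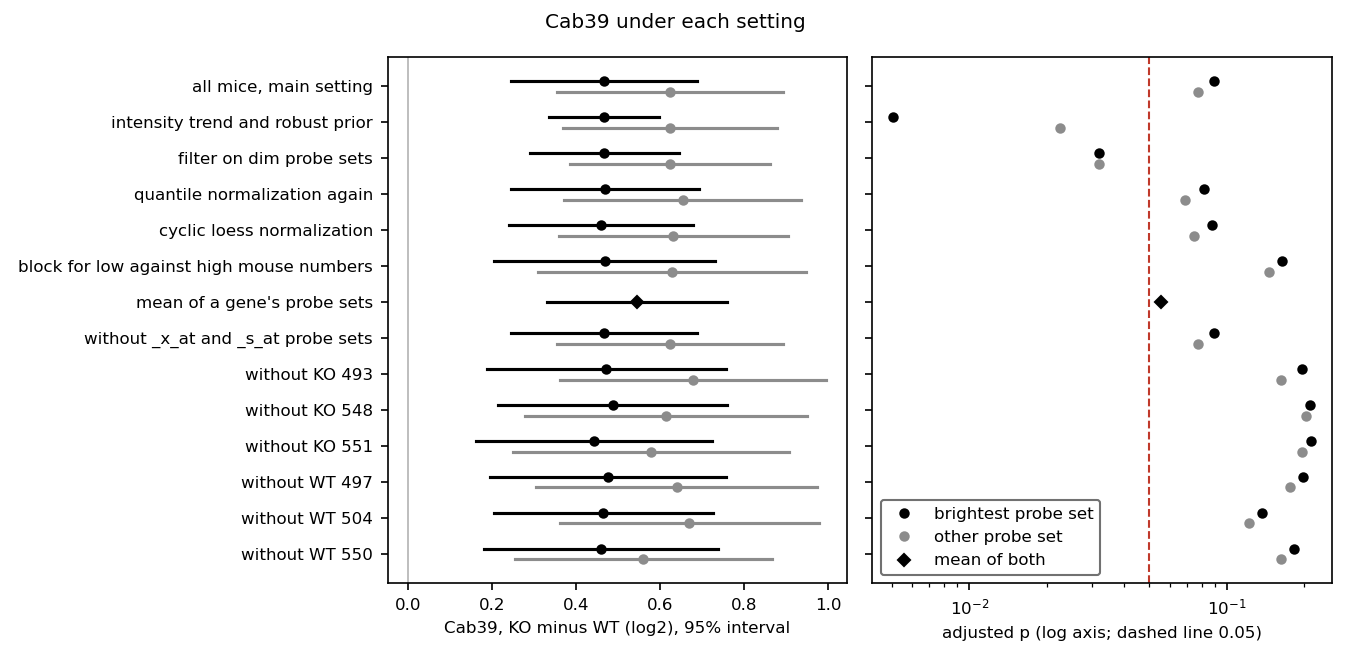
Difference of Cab39, KO minus WT in log2 intensity with its 95% interval (left), and its adjusted p on a log axis (right), for each setting, with the brightest probe set in black, the other in grey and their mean as a diamond. The difference stays near 0.47 on the brightest probe set throughout, and its adjusted p lies under 0.05 with the intensity trend and with the filter on dim probe sets.

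Cab39l, the other MO25 scaffold, did not share this difference on its bright probe sets. Its brightest, 1426367_at, read 10.43, 10.35 and 10.30 in KO, and 10.47, 10.42 and 10.33 in WT. The groups overlapped, and the difference was -0.05 ± 0.10 with an interval of 0.82-fold to 1.14-fold (adjusted p = 0.834). Probe set 1449966_s_at differed by -0.11 (0.75-fold to 1.14-fold, adjusted p = 0.683). The dimmer 1420733_at was at 0.39 (adjusted p = 0.371), with KO 493 at 6.55 above the other KO mice at 5.68 and 6.03, and the dimmest, 1446539_at, at -0.30 (adjusted p = 0.321). The dimmer probe sets thus pointed in opposite directions, while both bright ones lay near 0. Of the dimmer ones, 1420733_at still lay above the median mean level, at percentile 52.6.

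The within-array difference of the 2 paralogs was compared directly. Cab39 minus Cab39l was 0.91, 0.96 and 1.10 in KO, and 0.43, 0.46 and 0.54 in WT, so the groups did not overlap. The mean shift was 0.51 (log2), and the exact two-sided permutation test gave p = 0.1, the smallest that this test can give with 3 mice against 3, so it cannot reach 0.05 here. Without any 1 mouse the shift was 0.46 to 0.55.

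Stk11, which encodes LKB1 itself, was level between the genotypes. Its brightest probe set, 1418644_a_at, read 10.64, 10.61 and 10.63 in KO, and 10.68, 10.40 and 10.69 in WT. The difference of 0.04 ± 0.12 had an interval of 0.85-fold to 1.24-fold (adjusted p = 0.892), and its sign turned without WT 504, the low WT mouse (-0.06). The second probe set, 1448062_at, was at 0.03.

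**Figure D2:**
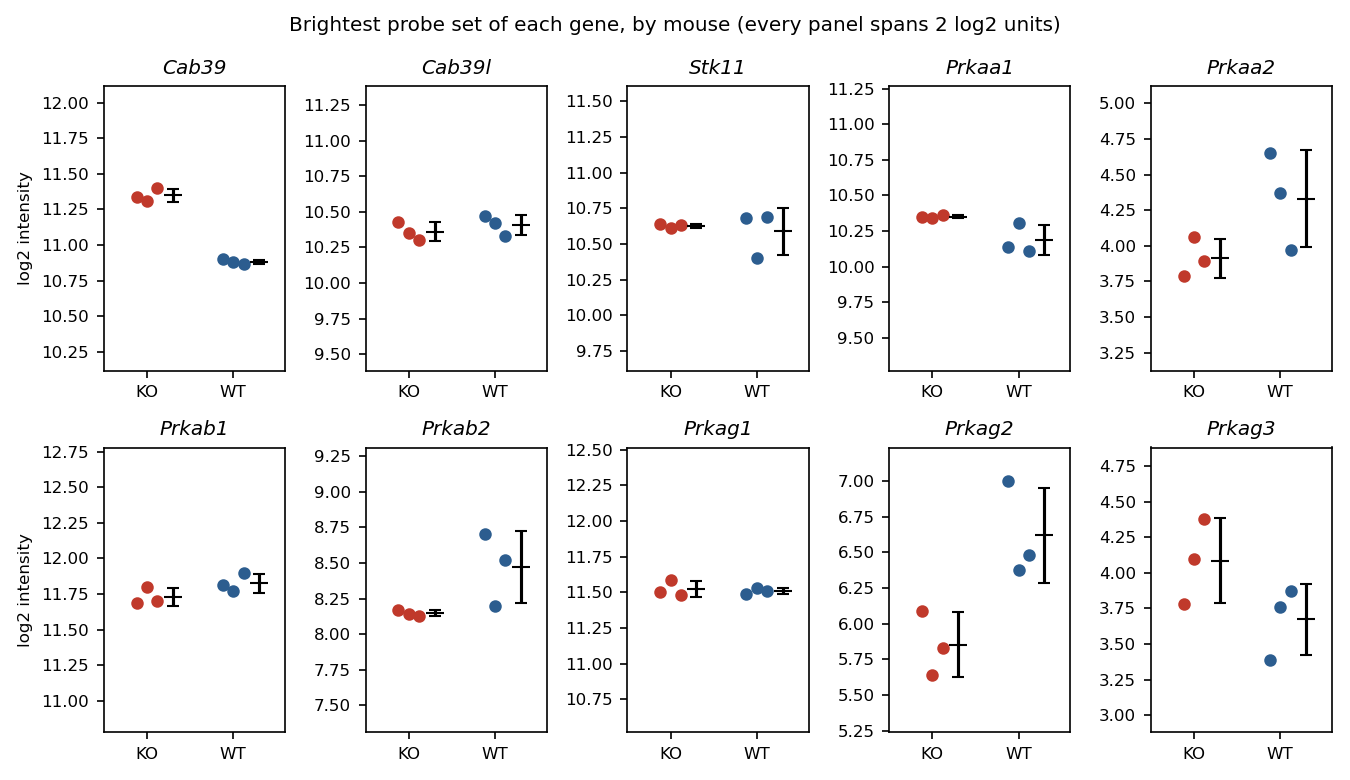
Log2 intensity of the brightest probe set of each of the 10 genes, 1 point per mouse in the order of the mouse numbers (KO red on the left, WT blue on the right), with the mean and SD as black bars, every panel spanning the same height. Cab39 shows the widest gap relative to its spread, Prkag2 lies lower in KO with WT 497 highest at 7.0, and Stk11, Prkab1 and Prkag1 overlap.

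Among the AMPK subunits, the isoforms numbered 1 were bright and close to level. Prkaa1, the alpha 1 catalytic subunit with 1 probe set, read 10.35, 10.34 and 10.36 in KO, and 10.14, 10.31 and 10.11 in WT. The groups did not overlap, but WT 504 came within 0.03 of the lowest KO mouse, and the difference was 0.16 ± 0.10 (0.95-fold to 1.33-fold, adjusted p = 0.421). Prkab1, the beta 1 scaffold, read 11.69, 11.80 and 11.70 in KO, and 11.81, 11.77 and 11.90 in WT on 1424119_at. Its difference was -0.10 ± 0.10 (0.79-fold to 1.10-fold, adjusted p = 0.63), and its dimmer probe set was at -0.06.

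Prkag1, the gamma 1 nucleotide-binding subunit, read 11.50, 11.59 and 11.48 in KO, and 11.49, 11.53 and 11.51 in WT on 1433533_x_at. The difference was 0.01 ± 0.10 (0.86-fold to 1.18-fold, adjusted p = 0.954), and it was -0.02 without KO 548. The ending _x_at marks probes that may also bind other transcripts. Its more specific probe set, 1417690_at, read 11.50, 11.46 and 11.45 in KO, and 11.39, 11.31 and 11.38 in WT, a difference of 0.11 ± 0.09 (adjusted p = 0.554) with groups that did not overlap. For these 3 subunits the intervals leave room for a KO signal of 0.79 to 1.33 times that of WT.

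The isoforms numbered 2 had mostly lower values in KO, and none passed the test. Prkag2, the gamma 2 subunit, had the lowest difference of the 10 genes. Its brightest probe set, 1423831_at, read 6.09, 5.64 and 5.83 in KO, and 7.0, 6.38 and 6.48 in WT. All KO mice lay below all WT mice, and WT 497 was highest. The difference was -0.77 ± 0.20, a signal of 0.588 times WT with an interval of 0.42 to 0.82 (adjusted p = 0.131, unadjusted p = 0.00669). It was -0.58 without WT 497, and the adjusted p was 0.0677 with the intensity trend and 0.0743 with the dim probe sets left out.

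The 4 probe sets of Prkag2 did not point one way. None was bright: the brightest lay at percentile 56.7 of mean level, and the others at 53.4, 42.2 and 34.6. Probe set 1451140_s_at was at -0.25, 1423832_at at -0.18 and 1431263_at at 0.33, with adjusted p-values of 0.695, 0.586 and 0.438. The shift of the brightest against 1431263_at differed by -1.10 (log2; exact two-sided permutation p = 0.1, the smallest possible; adjusted p = 0.56 over the 14 pairs). Averaged over the 4, Prkag2 was at -0.22 (adjusted p = 0.458), so the size of its difference rests on 1 probe set.

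Prkab2, the beta 2 scaffold, read 8.17, 8.14 and 8.13 in KO, and 8.70, 8.20 and 8.52 in WT on 1435874_at. The KO mice lay close together and just below WT 504, so the groups did not overlap. The difference was -0.33 ± 0.14 (0.63-fold to 1.01-fold, adjusted p = 0.27), and it was -0.21 without WT 497. The probe set 1435875_at was at -0.43 ± 0.16 (adjusted p = 0.211) and 1442001_at at -0.11 (adjusted p = 0.729).

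Prkaa2, the alpha 2 catalytic subunit, is best known from skeletal and heart muscle, and its signals were near the bottom of the scale. All of its 3 probe sets had means under the 25th percentile of the tested probe sets, a percentile that fell at 4.3 to 4.4 on the single arrays. The brightest, 1434766_at, read 3.79, 4.06 and 3.89 in KO, and 4.65, 4.37 and 3.97 in WT, with WT 550 inside the KO range. Differences were -0.42 ± 0.19, -0.48 ± 0.19 and -0.80 ± 0.30 (adjusted p = 0.275, 0.242 and 0.218), and the first was -0.26 without WT 497. Sizes this close to the bottom of the scale are uncertain, and the mean of the 3 was at -0.56 (adjusted p = 0.0635).

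Prkag3, the gamma 3 subunit of fast skeletal muscle, was equally dim. It read 3.78, 4.10 and 4.38 in KO, and 3.39, 3.76 and 3.87 in WT on its only probe set. The groups overlapped, and the difference was 0.41 ± 0.20 (0.97-fold to 1.84-fold, adjusted p = 0.297), or 0.27 without either KO 551 or WT 497. Detection calls were not used, so whether Prkaa2 and Prkag3 are transcribed in these cells was not tested. For scale, 19 marker genes of tissues other than blood had a median log2 intensity of 4.88, ranging from 2.32 to 9.96. These genes were slightly lower in KO too, 16 of 19, with means of 5.0 to 5.01 in KO and 5.04 to 5.2 in WT.

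Set side by side, the isoform 1 genes had 2 of 5 probe sets lower in KO and the isoform 2 genes 9 of 10, where 56.4% of all probe sets were lower. This grouping was made after the values were seen and carries no test. WT 497 was the highest WT mouse on 7 of the 10 isoform 2 probe sets and on 1 of the 5 isoform 1 probe sets, against 33.6% of all probe sets. Without WT 497 the isoform 2 genes had 7 of 10 probe sets lower, against 56.9% of all probe sets. WT 497 was also the mouse with the highest pooled level of markers of other blood lineages, 9.35, against 9.07 and 9.01 in the other WT mice. The part of those cells in the isoform 2 values was not tested.

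**Figure D3:**
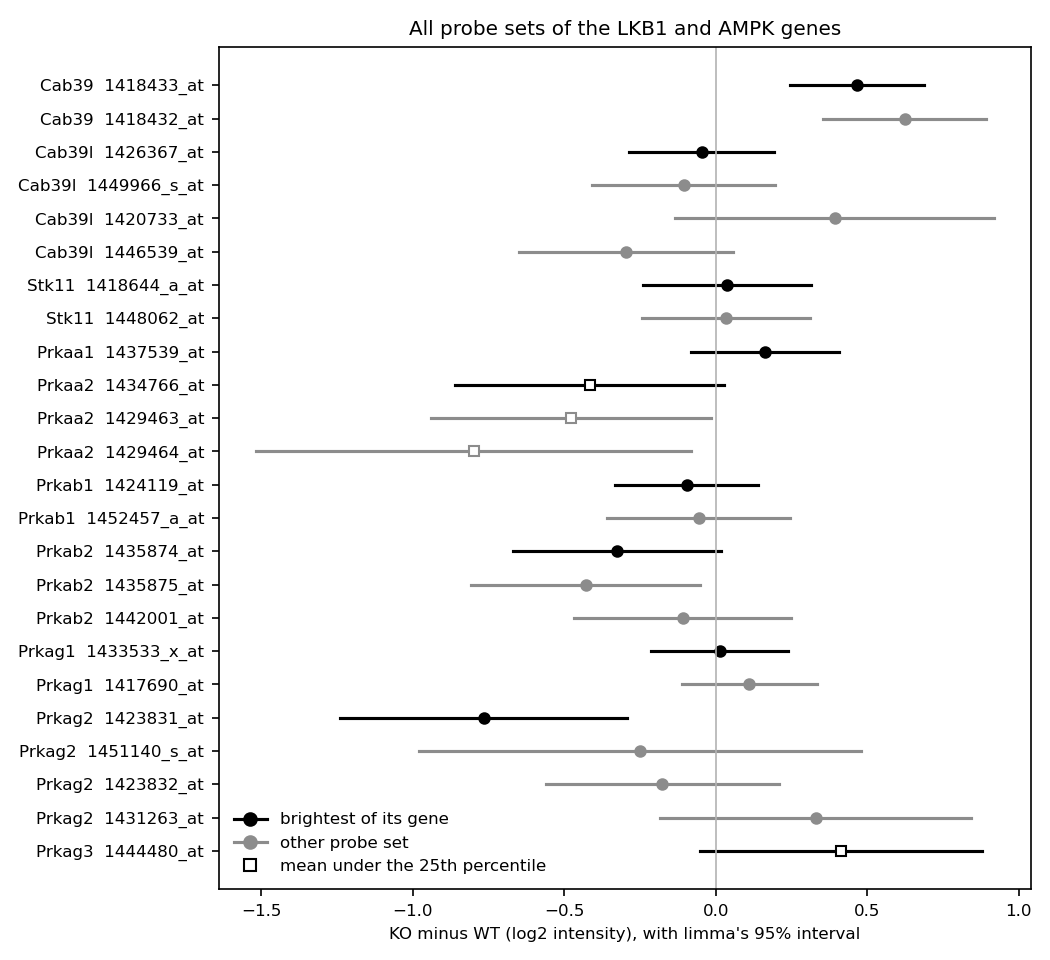
Difference KO minus WT in log2 intensity for all 24 probe sets, with limma's 95% interval; black marks the brightest probe set of a gene, grey the others, and open squares those with a mean under the 25th percentile. Both Cab39 intervals lie above 0, at 0.24 to 0.69 and 0.35 to 0.89, and the probe sets of Prkag2 fall on both sides of 0.

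Counted over all members, limma called 0 of the 24 probe sets higher and 0 lower at the adjusted threshold, where it called 0.184% and 0.171% of all probe sets. At an unadjusted p under 0.05, 2 were higher, both of Cab39, and 4 were lower, of Prkag2, Prkab2 and Prkaa2. The shares over all probe sets at this level were 7.61% higher and 12.2% lower, so these counts of 24 are near the background. The groups did not overlap on 4 probe sets higher in KO and 3 lower, where 10.7% and 15.3% of all probe sets had such a separation. The median difference of the 24 was -0.08 and that of all probe sets -0.04. With the intensity trend 2 were called higher and 0 lower, and with the filter 2 of the 15 that passed it were called higher and 0 lower. In each case these were the 2 probe sets of Cab39. None of the 10 genes lies on chromosome 11, which carries the deleted locus.

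The other genes of the pathway were taken from 6 lists. Of 46 listed genes 44 were measured under those symbols, 31 lower in KO and 13 higher, where 10130 of all 18193 genes were lower. Limma called 0 of them, where it called 0.236% of all genes higher and 0.148% lower. At an unadjusted p under 0.05, 7 were lower and 0 higher, against 12.7% and 8.34% of all genes. The groups did not overlap on 11 genes that were lower and on 0 that were higher, where 16.2% of all genes were lower and 12.5% higher without overlap. The median difference of the 44 was -0.06, close to the -0.04 of all genes. Without WT 497, 30 of the 44 were lower, and 11 lower and 1 higher had groups that did not overlap. The shares over all genes on these 5 arrays were 56.1% lower, 20.5% lower without overlap and 15.6% higher without overlap.

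Of the pseudokinases that complete the LKB1 complex, Stradb read 11.31, 11.23 and 11.28 in KO, and 11.55, 11.53 and 11.63 in WT. The groups were well apart, and the difference was -0.30 ± 0.10 (0.70-fold to 0.95-fold, adjusted p = 0.174, unadjusted p = 0.0178). Its second probe set was at -0.80 and was also lower in every KO mouse (adjusted p = 0.139). With the intensity trend the brightest probe set was called lower (adjusted p = 0.026), the 1 call among the brightest probe sets of the 44 genes under that setting, which called 2.04% of all genes lower. Over all 119 probe sets of these genes there was 1 more such call, a dimmer probe set of the salt-inducible kinase Sik1, named after its value was seen (-0.73, adjusted p = 0.0287 with the trend and 0.0703 without it). Strada, on chromosome 11, was at -0.07 (adjusted p = 0.794), with all 4 probe sets between -0.17 and -0.07, and the brightest turned to 0.03 without KO 551. The scaffold Cab39 thus had higher and the pseudokinase Stradb lower values in every KO mouse, while those of Stk11 overlapped.

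MO25 proteins also activate kinases of the STE20 family, and none of those 5 genes was called. Stk39, which encodes the ion transport regulator SPAK, was at -0.38 (adjusted p = 0.358), and its 3 probe sets lay between -0.66 and -0.34, the smallest adjusted p being 0.0736; the brightest was at -0.21 without WT 497. Stk26, a germinal centre kinase, was at -0.25 (adjusted p = 0.374), or -0.14 without KO 493. The other kinases known to phosphorylate AMPK, Camkk2 and Map3k7, were at 0.07 and -0.01 (adjusted p = 0.881 and 0.984). On these brightest probe sets the sign of each turned with the omission of single mice. The 4 probe sets of Camkk2 were all higher in KO, by 0.07 to 0.31, the smallest adjusted p being 0.32. The probe sets of Map3k7, which encodes TAK1, ranged from -0.15 to 0.59.

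The AMPK-related kinases, which LKB1 can phosphorylate with the exception of Melk, had the lowest median of the 6 lists. Of 13 measured, 12 were lower in KO, where 55.7% of all genes were lower. At an unadjusted p under 0.05, 3 were lower, against 12.7% of all genes, and 0 were called. The median was -0.21. These counts use the brightest probe set of each gene, and other probe sets can differ. Sik3 was at -0.30 on its brightest and at 0.37, 0.31 and -0.37 on dimmer ones. Nuak1, a kinase of the cell adhesion and stress response, read 6.80, 6.79 and 6.35 in KO, and 7.67, 7.13 and 7.19 in WT, a difference of -0.68 ± 0.20 (adjusted p = 0.148). Without WT 497 it was at -0.51. Brsk1, best known from neurons, was at -0.41 ± 0.11 (adjusted p = 0.129) with KO mice at 5.06 to 5.2 and WT mice at 5.46 to 5.66. Both were named for their small p and separated the genotypes, as 16.2% of all genes did in this direction. Brsk1 had dim signals under the median of the tested probe sets.

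AMPK regulators held 7 measured genes, 5 lower (against 55.7% of all genes) and 0 called, with a median of -0.10. Sesn3, a stress-induced sestrin, was at -0.59 (adjusted p = 0.298), with WT 497 at 8.05 well above the other WT mice at 6.92 and 7.19 and the KO mice at 6.66 to 6.9. It was at -0.26 without WT 497, and its second probe set overlapped between the groups. Fnip2, a partner of folliculin, was at -0.18 (adjusted p = 0.376). Neither passed the threshold.

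Transcripts of AMPK substrates held 15 measured genes, 9 lower (against 55.7% of all genes) and 0 called, with a median of -0.04. AMPK acts on these proteins by phosphorylation, so their transcript levels are no measure of its activity. Tbc1d1, a regulator of glucose transporter traffic, was at -0.67 ± 0.19 (adjusted p = 0.153), with KO mice at 7.25 to 7.48 and WT mice at 7.72 to 8.44. The brightest was at -0.46 without WT 497. Its 4 probe sets were all lower, by -0.67 to -0.23. Ppargc1a, the coactivator of mitochondrial biogenesis, was at -0.66 ± 0.21 (adjusted p = 0.173) on a dim probe set and at -0.44 without WT 504, and its 5 probe sets ranged from -0.66 to 0.10.

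**Figure D4:**
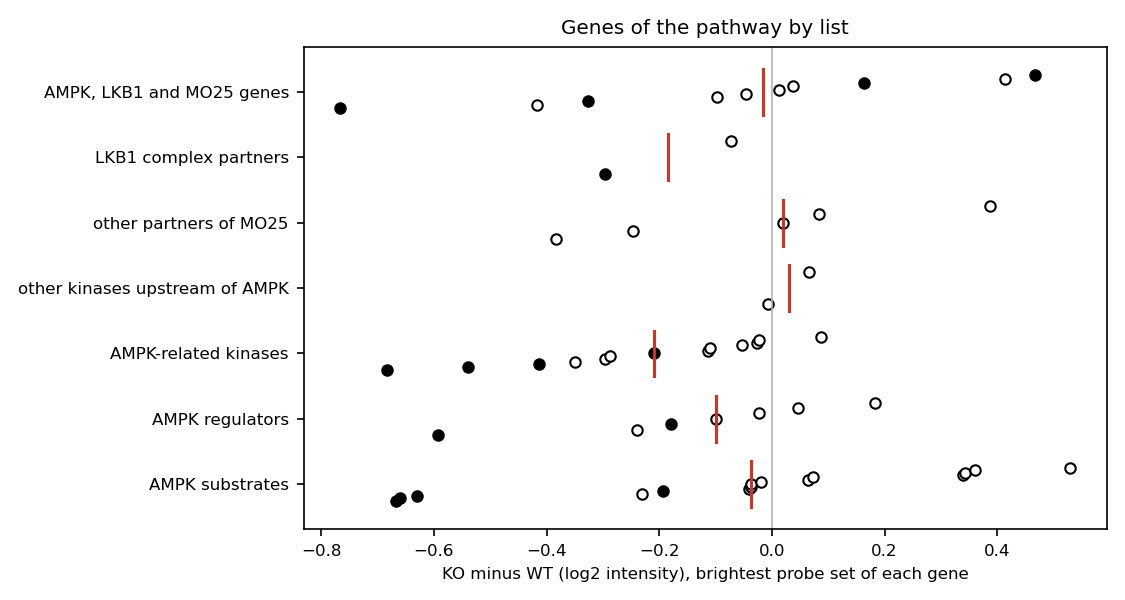
Difference KO minus WT in log2 intensity of the brightest probe set of each gene, for the 10 AMPK, LKB1 and MO25 genes and the 6 lists; filled points are genes whose KO and WT mice do not overlap, and red bars are medians. The AMPK-related kinases lie mostly left of 0, with a median of -0.21, and Cab39 is the point farthest right in its row, at 0.47.

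Genes with a pattern most like that of Cab39 were found by the distance between profiles over the 6 arrays, each centred on its mean, among 10751 other genes brighter than the median. The 5 closest were Zbtb33 at a distance of 0.042, AW549877 at 0.07, Ubxn4 at 0.071, Abcf3 at 0.08 and Lin7c at 0.082, where the median distance was 0.699. Zbtb33, which encodes the methyl-DNA binding repressor Kaiso, read 10.65, 10.57 and 10.68 in KO, and 10.16, 10.15 and 10.14 in WT. It and the others were higher in every KO mouse, with differences of 0.43 to 0.49. Their adjusted p-values ran from 0.0857 to 0.102, so they too missed the threshold in the limma fit with a constant prior. Like Cab39, all 5 passed it with the intensity trend (adjusted p = 0.00424 to 0.0478) and with the filter (0.0308 to 0.0364). Since these 5 were picked for closeness to the Cab39 profile, their likeness in size, separation and adjusted p follows from that choice. It shows only that Cab39 is not alone in its pattern on these arrays.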

How the data were processed

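The deposited values were probe-set intensities summarised by the authors with RMA, which models all arrays jointly, per the submitters' processing notes; its software and version are not given in the sources used here. It draws the arrays toward a shared distribution, which can remove part of a shift common to most transcripts. The linear intensities began at 1, and 100% matched powers of 2 whose exponents had 2 decimals (within rounding to 2 decimals), so they were returned to log2 with no further normalization. Of 45101 probe sets, 64 controls were left out. Genes came from GEO's platform annotation, with symbols updated through NCBI RefSeq (GRCm38.p6, 99.1% of genes matched). The brightest probe set by mean log2 value represented each gene. KO and WT were compared in R 4.3.3 by limma 3.58.1, using lmFit and eBayes without covariates, and p-values were adjusted by the Benjamini-Hochberg method over all 45037 probe sets; 95% intervals are limma's. The fit was tested on simulated data. The 3 arrays per group limit precision, and the labels do not say that mice are littermates or independent. Limma's p-values rest on the spread between these mice, moderated by the variance of all probe sets fitted. For the brightest probe set of Cab39 the SDs were 0.05 in KO and 0.02 in WT, both under its moderated SE of 0.09.

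The members and lists were chosen with earlier results of these data known. Named genes are all members, the 2 genes with the smallest p of each other list (none had a call), and the 5 genes closest to Cab39. Sik1 and Sik3 were also named, after the values of their probe sets were seen. Alternatives were an intensity trend with robust prior, a filter at the median mean level, quantile and cyclic loess normalization, a block term separating low from high mouse numbers, averaged probe sets, omission of _x_at and _s_at probe sets, and omission of each mouse. No numbers were shared between groups, and no mice were paired. List genes not measured under their symbols were not analysed here.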

Additional observations from a re-analysis of the deposited data

How the results depend on the processing

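Cab39 kept its direction under all 13 alternatives, at 0.44 to 0.55. It passed the threshold under 2 of them, the intensity trend with robust prior (0.47, adjusted p = 0.00507) and removal of dim probe sets (0.47, adjusted p = 0.0318), and each raised the count of called member probe sets to 2, both of Cab39, against 0 otherwise. Neither of these 2 settings can change a difference. Omitting _x_at and _s_at probe sets also left Cab39 at 0.47, since it has none of them. Its kept direction under these alternatives was thus fixed in advance. The filter tests fewer probe sets and estimates limma's variance prior again from those that remain. At an unchanged difference, the unadjusted p of the brightest was 0.000549, against 0.00169 without the filter. What each step, and the trend in the other setting, added to the adjusted p was not tested. Omission of 1 mouse gave Cab39 differences of 0.44 to 0.49. The trend raised the count of other pathway genes called by their brightest probe set to 1, Stradb, against 0 otherwise. Cab39 minus Cab39l kept its direction under its 9 alternatives (0.46 to 0.56). Among the other members, Prkag1 turned to -0.02 without KO 548 (-0.020 to 0.035 over omissions of 1 mouse) and Stk11 to -0.058 without WT 504 (-0.058 to 0.087); the others kept their direction wherever they were tested, without passing the threshold. Prkaa2 and Prkag3 were left out by the dim filter, so 12 alternatives apply to each. The difference of Prkag2 was between -0.89 and -0.58 without 1 mouse and -0.22 as the mean of its probe sets. Low signal limits what can be read for Prkaa2 and Prkag3, and the signal of Prkag2 was modest too, at percentile 56.7 on its brightest probe set.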
